A study of Mus musculus with 12 samples.

Results

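The Ugt1a family of the mouse is a set of enzymes that attach glucuronic acid to bilirubin, phenols, steroids and drugs. The 8 genes of the family listed by symbol (Ugt1a1, Ugt1a2, Ugt1a5, Ugt1a6a, Ugt1a6b, Ugt1a7c, Ugt1a9 and Ugt1a10) were looked up in the table of adult libraries and matched to the table of neonatal libraries by Entrez Gene identifier. All 8 were found in both tables, out of 23954 genes for adults, 23333 for neonates and 23319 in both. They were chosen by name and not by their values.

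The libraries came from whole small intestine of C57BL/6 mice, ground to a powder while frozen, per the labels. Mice labelled wild type (WT) were set against mice with an intestinal knockout of NCoR1 (KO), once as neonates of 12 days and once as adults of 10 weeks, which makes 4 groups. Each group had 3 libraries, and each library held the pooled RNA of 2 mice. The strains are called F/FUN and DIECUN in the study's design text, with no explanation. The promoter that drives the deletion, and whether any group carries an altered Ugt1 locus, is stated in none of the sources used here. If the locus were altered, the reads counted for mouse Ugt1a genes would need another reading, so every level below is that of a table entry and not of a gene known to be intact.

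Glucuronidation takes place in the endoplasmic reticulum, where a UDP-glucuronosyltransferase moves glucuronic acid from UDP-glucuronic acid to its substrate and makes it soluble enough for export in bile, urine or gut content. Bilirubin, the end product of heme breakdown, leaves the body in this way, and loss of Ugt1a1 activity leads to unconjugated bilirubin in the blood of newborns. Every Ugt1a messenger RNA joins a first exon of its own, which encodes the substrate-binding part, to a common set of exons that encode the part binding UDP-glucuronic acid. The nuclear receptors PXR (Nr1i2), CAR (Nr1i3) and PPARα (Ppara), the aryl hydrocarbon receptor (Ahr) and NRF2 (Nfe2l2) are known activators of Ugt1a genes. NCoR1 is a corepressor that many nuclear receptors bind while they keep target genes silent.

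In the mm9 build of the files, the 8 genes lie on the plus strand of chromosome 1 and cover 164.592 kb. Ugt1a10 starts first, at 89951986, and Ugt1a1 last, at 90108534. Exons 2 to 5 belong to all 8 genes. Of the 3222 exon bases counted for Ugt1a1, 2309 are shared, or 71.7%. The table entry of Ugt1a6b ends at 90115573, inside exon 5 and 1004 bases before the end of the other 7 genes, so it has 2285 exon bases, of which 1304 (57.1%) are shared. Within a library the gene with the most reads had only 1.14 to 1.46 times the reads of the gene with the fewest, which places the shared reads in every gene's entry. The 8 values are thus in large part the same reads and are not 8 independent measurements.

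**Figure D1:**
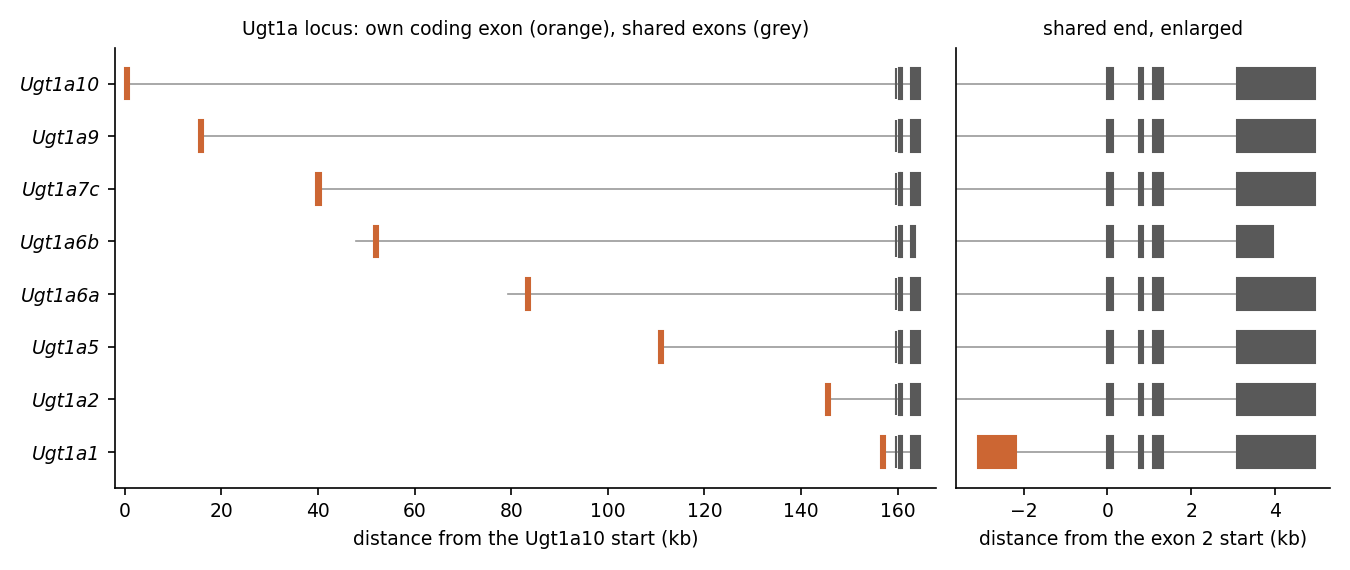
Exons of the 8 Ugt1a genes, with distance in kb from the Ugt1a10 start (left) or from the start of exon 2 (right). Orange boxes mark the coding exon that belongs to 1 gene, grey boxes the 4 shared exons, and lines the span of each table entry; the shared end of Ugt1a6b is 1004 bases shorter than that of the other genes. The short leading exons of Ugt1a6a and Ugt1a6b are not drawn.

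The last 36 bases of each gene's own coding exon are shown because the libraries were read for 36 cycles, so these are the last stretch of read length before the shared exons begin. Capitals mark bases that differ from Ugt1a1 at the same position. All are on the plus strand of mm9, and those of Ugt1a1 lie at chr1:90109411-90109446, of Ugt1a6a at chr1:90035871-90035906 and of Ugt1a6b at chr1:90004339-90004374. Those of Ugt1a7c lie at chr1:89992518-89992553, of Ugt1a9 at chr1:89968218-89968253 and of Ugt1a10 at chr1:89952876-89952911. Those of Ugt1a2 lie at chr1:90098040-90098075 and of Ugt1a5 at chr1:90063443-90063478.
Ugt1a1: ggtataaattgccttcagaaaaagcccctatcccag
Ugt1a6a: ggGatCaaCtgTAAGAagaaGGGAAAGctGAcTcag
Ugt1a6b: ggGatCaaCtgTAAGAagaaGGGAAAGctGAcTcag
Ugt1a7c: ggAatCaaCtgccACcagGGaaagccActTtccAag
Ugt1a9: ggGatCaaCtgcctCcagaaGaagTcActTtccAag
Ugt1a10: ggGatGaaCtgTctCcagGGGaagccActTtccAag
Ugt1a2: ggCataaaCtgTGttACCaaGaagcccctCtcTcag
Ugt1a5: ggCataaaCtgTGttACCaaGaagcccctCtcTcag

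These stretches fall into 3 kinds beside that of Ugt1a1. Ugt1a6a and Ugt1a6b had the same 36 bases and differed from Ugt1a1 at 18. Ugt1a2 and Ugt1a5 also had the same 36 bases and differed from Ugt1a1 at 10. Ugt1a7c, Ugt1a9 and Ugt1a10 differed from Ugt1a1 at 10, 9 and 11 bases.

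Over the whole of each gene's own exons, every window of 36 bases was compared with the own exons of the other 7 genes. No window of Ugt1a1 (0 of 878) came within 2 mismatches of another gene. At the other end, 88.3% of the windows of Ugt1a6b and 87.8% of those of Ugt1a6a came within 2 mismatches of each other. The share was 45.3% for Ugt1a10 and 47.3% for Ugt1a9, mostly against each other, 25.0% each for Ugt1a2 and Ugt1a5 against each other, and 15.3% for Ugt1a7c. Reads from the first exon of Ugt1a1 could therefore be told from the rest of the locus, while values of Ugt1a6a and Ugt1a6b, and in part of Ugt1a9 and Ugt1a10, are uncertain as single genes. How reads with several matches in the genome were counted is not stated in the sources used here.

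Reads assigned to genes, in units of 1e+06 per library, lay between 8.44 and 9.34 for WT and 5.93 and 8.31 for KO in neonates, and between 9.78 and 11.8 for WT and 11.9 and 13.1 for KO in adults. Ncor1 stood at 446.9 to 459.3 reads per 1e+06 reads in genes (CPM) in neonates of WT and 213.3 to 244.9 in those of KO, and at 239.5 to 252.2 and 159.3 to 167.8 CPM in adults. It was lower in KO at both ages (log2 difference -0.97, adjusted p = 1.73e-10 in neonates, and -0.58, adjusted p = 0.00021 in adults, limma). None of 10 enterocyte markers was at 0 in any group, and intestinal tissue is what the labels name. Limma called 741 of all tested genes higher and 2268 lower with the knockout in neonates, and 741 and 1870 in adults. The median log2 difference of all tested genes was -0.11 at both ages. Scaling by trimmed means (TMM) moved that median up by 0.11 in adults and gave 1278 higher and 1098 lower genes in neonates and 1334 and 854 in adults.

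In neonates, all 8 Ugt1a genes were higher in KO than in WT, and each of their KO libraries lay above each of their WT libraries. The rise was 1.58-fold to 1.65-fold in mean CPM. The background in that comparison was 21.2% of genes called in either direction, 5.21% called higher and 16% lower, and 8.62% with all KO libraries above all WT libraries (28.3% with all below). Since the 8 genes share most of their reads, 8 of 8 is close to a single observation and cannot be read as 8 hits against that background.

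Ugt1a1, the main bilirubin-conjugating enzyme, stood at 23.8, 24.6 and 22.7 CPM in WT neonates and at 41.4, 37.4 and 38.8 CPM in KO neonates. The lowest KO library was well above the highest WT library. The means were 23.7 ± 0.944 and 39.2 ± 2.06 CPM (SD, n = 3), a log2 difference of 0.70 on the log2(CPM + 1) scale (SE 0.0861, limma adjusted p = 6.39e-06).

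Ugt1a6a and Ugt1a6b, which conjugate small planar phenols, moved alike. Ugt1a6a stood at 19.0, 20.8 and 16.7 CPM in the WT libraries and 29.7, 29.6 and 31.4 CPM in KO, a log2 difference of 0.66 (SE 0.0990, adjusted p = 6.79e-05). Ugt1a6b stood at 17.5, 19.3 and 16.3 CPM in the WT libraries and 28.4, 28.4 and 29.2 CPM in KO, a log2 difference of 0.67 (SE 0.0967, adjusted p = 4.59e-05). These genes have nearly the same first exons, so their values describe them together.

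Ugt1a7c, whose human counterpart conjugates phenolic carcinogens, stood at 21.7, 22.5 and 17.8 CPM in WT neonates and 33.1, 31.4 and 33.6 CPM in KO neonates. Its log2 difference was 0.64 (SE 0.0994, adjusted p = 9.19e-05), the smallest of the 8 genes. Ugt1a9 and Ugt1a10, whose human counterparts conjugate phenols and drugs, had WT means of 19.4 ± 2.28 and 18.2 ± 2.005 CPM and KO means of 31.3 ± 0.602 and 29.8 ± 0.799 CPM. Their log2 differences were 0.67 and 0.68. Ugt1a2, which conjugates bilirubin in the rat, and Ugt1a5 rose from 18.6 ± 1.77 and 19.1 ± 1.28 to 30.4 ± 1.13 and 30.8 ± 0.303 CPM, with log2 differences of 0.69 and 0.66.

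Over the family the adjusted p ran from 6.39e-06 to 9.19e-05, and the median log2 difference was 0.67 against -0.11 over all tested genes. The authors' deposited table of neonates lists log2 fold changes of 0.76 to 0.83 for the 8 genes. The calls ended in 1 alternative: in 1 fit of the 4 groups, which shares its estimate of spread with the adult libraries, 0 of 8 genes were called and the adjusted p ran from 0.106 to 0.135. In the other alternatives, among them each fit that left out 1 library, all 8 were called.

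**Figure D2:**
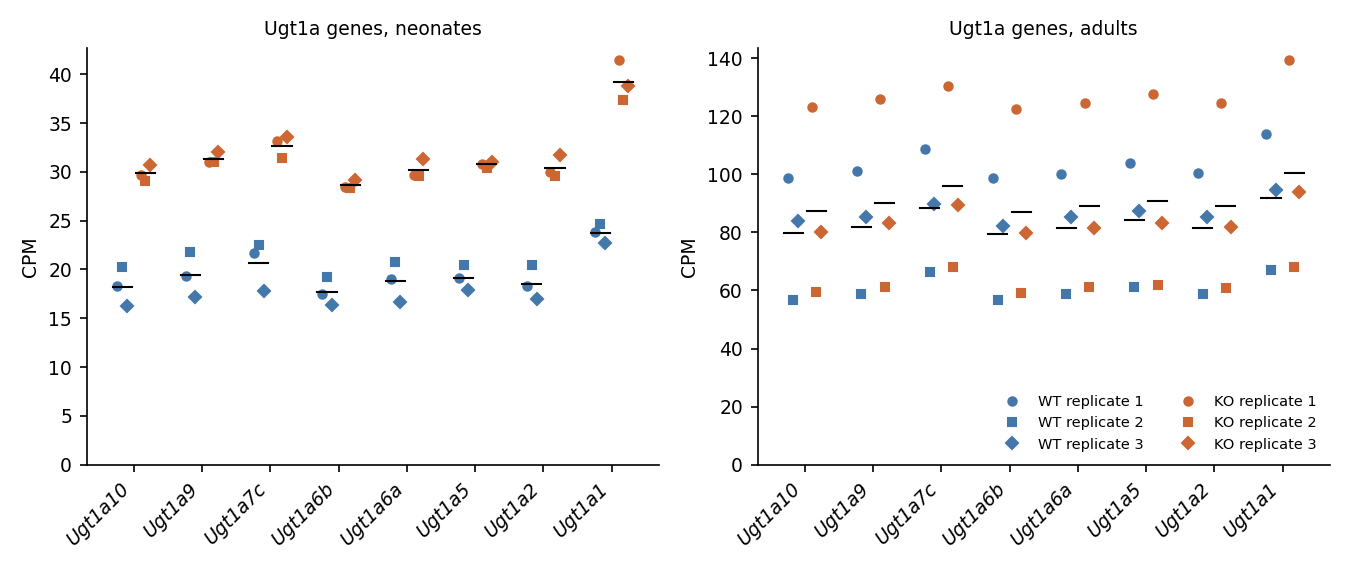
Level of each Ugt1a gene in CPM in neonates (left) and adults (right), 1 point per library, with WT in blue, KO in orange and the group mean as a black line; marker shape gives the replicate number. In neonates the KO libraries lie above the WT libraries for every gene, and in adults the groups overlap for every gene.

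In adults, none of the 8 genes was called different between KO and WT, and the groups overlapped for each of them. Ugt1a1 stood at 113.9, 67.0 and 94.6 CPM in the WT libraries and 139.5, 68.1 and 94.0 CPM in KO. Replicate 1 was the highest and replicate 2 the lowest library in both genotypes, and the gap between those libraries was larger than that between the genotype means of 91.8 ± 23.5 and 100.5 ± 36.1 CPM. Its log2 difference was 0.10 with a 95% interval from -0.84 to 1.05 (SE 0.353, limma adjusted p = 0.874).

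The other 7 genes had the same order of libraries. Ugt1a6a stood at 100.2, 58.9 and 85.2 CPM in the WT libraries and 124.7, 61.1 and 81.5 CPM in KO. Ugt1a7c stood at 108.6, 66.3 and 89.9 CPM in the WT libraries and 130.3, 68.1 and 89.6 CPM in KO. Over the family the log2 difference ran from 0.08 to 0.11, with standard errors of 0.318 to 0.365 and adjusted p of 0.86 to 0.902.

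Limma called 0 of the 8 genes in adults, against a background of 19.4% of genes called (5.5% higher, 13.9% lower; 10.4% with all KO libraries above and 27.8% with all below the WT libraries), with 0 at an unadjusted p under 0.05 and 0 by edgeR or DESeq2. The intervals reached from -0.87 to 1.08 over the family, so a difference of the size seen in neonates lay inside them. The authors' deposited table of adults, whose sign is WT minus KO, lists log2 fold changes of -0.26 to -0.23 for the 8 genes with false discovery rates of 0.733 to 0.824. Leaving out 1 library moved the log2 difference between -0.19 and 0.36, with no call.

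The effect of the knockout on Ugt1a genes was not shown to differ between the ages. For Ugt1a1, the adult log2 difference less the neonatal one was -0.60 (95% interval -1.43 to 0.23, limma adjusted p = 0.434). It ran from -0.60 to -0.55 over the 8 genes with adjusted p of 0.434 to 0.496, and 0 of 8 were called against a background of 5.46% (3.02% higher and 2.44% lower in adults). At an unadjusted p under 0.05 the count was also 0, as it was with edgeR.

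**Figure D3:**
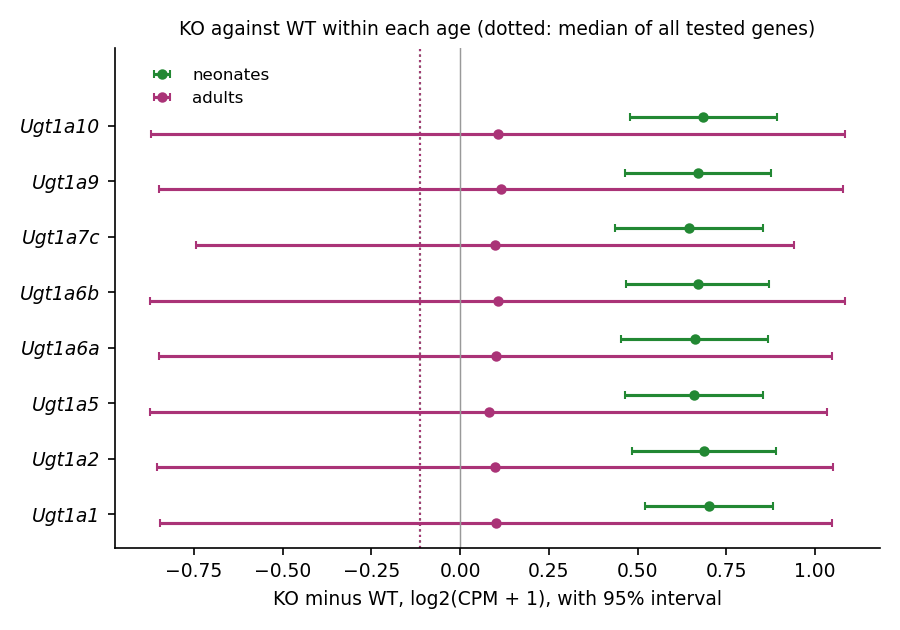
KO minus WT difference of each Ugt1a gene in log2(CPM + 1), with its 95% interval from limma, in neonates (green) and adults (purple); the dotted line is the median of all tested genes, -0.11 at both ages. The neonatal intervals lie above 0 and the adult intervals hold 0 and reach past the neonatal values.

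Between the ages the levels themselves were far apart. Mean Ugt1a1 was 3.87 times as high in WT adults as in WT neonates in CPM, and the other 7 genes were 4.21 to 4.48 times as high. These ratios are given without a test, because each age has a table of its own with its own scaling, so age and table cannot be told apart.

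Per length, as RPKM, the deposited reads scaled by exon length and library total, the order of the genes was set in part by their counted length. Ugt1a6b came first in all 4 groups although it had the fewest or nearly the fewest reads, since its entry is the shortest. Its mean was 4.41 ± 0.415 RPKM for WT and 6.81 ± 0.372 for KO in neonates, and 17.4 ± 5.42 for WT and 20.4 ± 7.68 for KO in adults. Ugt1a1 came next with 4.195 ± 0.209, 6.60 ± 0.145, 14.2 ± 4.31 and 16.8 ± 6.08 RPKM. Ugt1a10 or Ugt1a6a came last, at 3.22 ± 0.386 RPKM for Ugt1a10 in WT neonates. The gap between Ugt1a1 and the third gene, Ugt1a7c, was larger than either SD in both groups of neonates. No other gap between neighbours in the order was, in any group, and no gap in adults was.

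To separate what belongs to single genes, the reads of Ugt1a6b, the gene with the fewest reads summed over the libraries of each age, were subtracted from those of each other gene within a library. What remains is the reads in a gene's own exons, plus those in the 1004 bases of exon 5 beyond the Ugt1a6b end, minus those in the own exons of Ugt1a6b. Ugt1a10 had next to nothing left, from -1 to 10 reads in the neonatal libraries and from -3 to 16 in the adult libraries. Ugt1a1 had the most reads left in every library but KO adults replicate 2, where Ugt1a7c had as many.

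In neonates Ugt1a1 had 54, 50 and 54 reads above Ugt1a6b in WT and 103, 75 and 57 in KO. In CPM these were 6.33, 5.35 and 6.40 in WT and 13.0, 9.02 and 9.61 in KO. All 3 KO libraries lay above all 3 WT libraries, at means of 6.03 ± 0.583 and 10.5 ± 2.16 CPM (1.75-fold). The two-sided exact permutation test gave p = 0.1, the smallest that 3 libraries against 3 allow.

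Of the other genes in neonates, Ugt1a7c had 36, 30 and 12 reads above Ugt1a6b in WT and 37, 25 and 26 in KO, and its groups overlapped (exact permutation p = 0.4). Ugt1a2, Ugt1a5 and Ugt1a9 had KO libraries above all WT libraries (exact permutation p = 0.1 each), but with 5 to 23 reads per library. Measured from Ugt1a10 in place of Ugt1a6b, the KO minus WT difference of Ugt1a5 shrank from 0.648 to 0.0351 CPM, that of Ugt1a2 from 0.886 to 0.274 and that of Ugt1a9 from 0.958 to 0.345. Differences at these read numbers cannot be assigned to single genes.

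In adults the same measure gave Ugt1a1 176, 115 and 122 reads in WT and 210, 119 and 171 in KO. The groups overlapped at 12.5 ± 2.37 and 13.5 ± 3.97 CPM (exact permutation p = 0.8). Ugt1a7c followed with 114, 107 and 76 reads in WT and 96, 119 and 118 in KO, and Ugt1a5 with 59, 50 and 52 in WT and 63, 38 and 44 in KO. In neonates Ugt1a5 had 14, 11 and 13 reads in WT and 19, 17 and 11 in KO.

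The share of Ugt1a1 reads that lay above Ugt1a6b compares exons within a library, so scaling cancels out. In neonates it was 25.5 ± 3.34% for WT and 26.8 ± 4.03% for KO, and in adults 13.9 ± 1.20% and 13.6 ± 1.58%. Within each age the genotypes differed by less than their SDs. Every neonatal library lay above every adult library, from 21.7% to 31.4% against 12.1% to 15.3%. Summed over the 7 genes, the reads above Ugt1a6b came to 82.8 ± 15.6% and 83.1 ± 12.1% of its reads in WT and KO neonates, and to 44.2 ± 9.13% and 41.2 ± 8.92% in WT and KO adults.

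**Figure D4:**
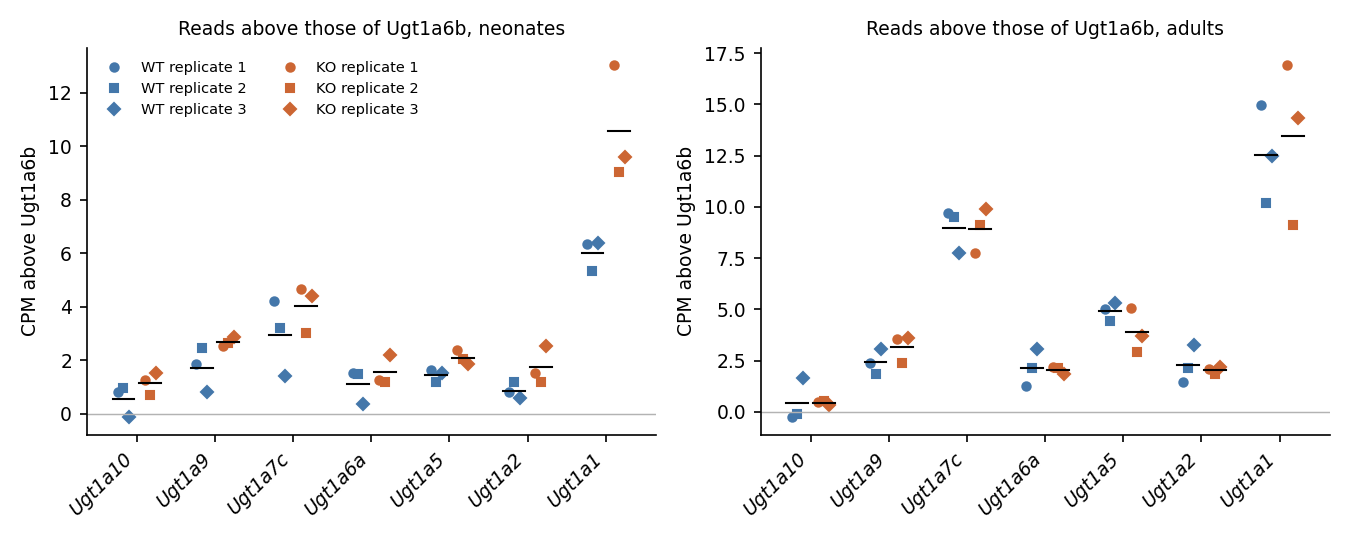
Reads of each Ugt1a gene above those of Ugt1a6b in the same library, in CPM, for neonates (left) and adults (right), with WT in blue, KO in orange and group means as black lines; the vertical scales differ. Ugt1a1 has the highest group means in both panels, and its KO libraries lie above its WT libraries in neonates and overlap them in adults.

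Whole tissue holds many cell types, and fewer cells of a type and less RNA per cell cannot be told apart. Enterocytes express Ugt1a genes, and 8 of 10 enterocyte markers were called higher and 1 lower in KO neonates, where 5.21% of all genes were called higher and 16% lower. Their summed level was 69570 to 73263 CPM in WT neonates and 74528 to 77841 in KO neonates. In adults 2 of 10 were called higher (5.5% of all genes), at 48733 to 55942 CPM in the WT libraries and 54542 to 58657 in KO.

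Markers of other cells moved too. In KO neonates, 3 of 6 tested immune markers were called lower (297.3 to 330.3 CPM in WT, 190.9 to 233.3 in KO) and 3 of 6 fibroblast markers (1971 to 2579 CPM in WT, 1777 to 1975 in KO), beside 16% of all genes called lower. Markers of liver, the organ with the best known Ugt1a activity, summed over 7 genes to 15.5 to 28.8 CPM in WT neonates and 3.71 to 4.69 in KO neonates, opposite in direction to Ugt1a. In KO adults Ahsg and Fga among them were at 0. In adults, fibroblast markers summed to 443.9 to 590.0 CPM in WT and 349.2 to 364.5 in KO and secretory markers to 8674 to 11065 in WT and 6585 to 8120 in KO, without overlap. In each of these lists 3 of 6 were called lower, beside 13.9% of all genes. In adults, 8 pancreas markers summed to 1720 to 5153 CPM in the WT libraries and 272.0 to 1852 in KO, and Amy2a5 among them was at 0 in every group. The lowest Ugt1a library of each adult genotype, replicate 2, held the most pancreas signal in WT (5153 CPM) and the least in KO (272.0 CPM). The part of these cells in the Ugt1a results was not tested.

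Among the genes ranked, those whose profile over the 12 libraries was most like that of Ugt1a1 were Tm4sf5, Guca2b, Enpep, Slc15a2 and Cubn. Ranked were 9723 genes outside the family with a mean of at least 5 CPM in both ages. Genes with no symbol or a provisional one (Gm or LOC with a number, or Rik) were left out, and some of them could lie closer. Likeness was the root mean square difference of log2(CPM + 1) after centring on the mean of each age. It was 0.201, 0.208, 0.211, 0.215 and 0.218 for these genes, against 0.037 to 0.0635 for the other Ugt1a genes, which share its exons. Tm4sf5, a membrane protein of the tetraspanin type, stood at 93.4, 85.4 and 102.8 CPM in WT neonates and 144.6, 140.1 and 143.7 in KO neonates. Among adults it was at 677.0, 496.0 and 593.0 CPM in the WT libraries and 623.2, 505.9 and 685.4 in KO. Guca2b encodes the gut hormone uroguanylin, Enpep a peptidase of the brush border, Slc15a2 a peptide transporter and Cubn the receptor for the vitamin B12 carrier. Tm4sf5, Guca2b, Enpep and Cubn were called higher in KO neonates. Slc15a2 was not called there (log2 0.38, limma adjusted p = 0.0801), at 5.45 to 9.44 CPM. Since profiles were chosen for their likeness, these neonatal differences are a description.

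The steps around glucuronidation were taken from lists of genes with known roles. Bilirubin is made from heme by heme oxygenase (Hmox1, Hmox2) and biliverdin reductase (Blvra, Blvrb). None of these 4 genes was called in neonates, beside 21.2% of all genes. In 1 library, WT neonates replicate 1, Hmox1 stood at 83.8 CPM against 16.0 to 27.4 in the other 5 neonatal libraries. In adults Blvrb fell from 21.2, 19.8 and 21.7 CPM in WT to 14.9, 15.4 and 12.3 in KO (log2 -0.53, adjusted p = 0.00586), with no overlap. Blvra fell by 0.44 on the log2 scale (adjusted p = 0.00971), a call that ended without KO adults replicate 3, with DESeq2 and on RPKM.

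UDP-glucuronic acid is made from glucose phosphate by phosphoglucomutase, UDP-glucose pyrophosphorylase (Ugp2) and UDP-glucose dehydrogenase (Ugdh) and carried into the endoplasmic reticulum by transporters such as Slc35d1. Ugdh, which makes the sugar donor itself, was not called: it stood at 305.5, 266.8 and 252.5 CPM in WT neonates and 304.3, 258.1 and 265.2 in KO neonates (log2 0.01, 95% interval -0.16 to 0.17). Among adults it was at 667.5, 577.5 and 513.6 CPM in the WT libraries and 717.1, 644.2 and 693.3 in KO (log2 0.23, adjusted p = 0.117), and the groups overlapped.

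Of the 9 supply genes, 1 was called higher and 1 lower in neonates, a share near the 21.2% of all genes called. Slc35d1 fell from 33.4, 30.9 and 30.4 CPM to 26.3, 24.8 and 21.1 (log2 -0.38, adjusted p = 0.00721), a call that DESeq2 did not make. Slc35b1, a nucleotide transporter of the same membrane, was called higher by 0.20 at an adjusted p of 0.0493, and that call ended when any library but KO replicate 2 was left out, without the filter, on RPKM and in the fit of the 4 groups. In adults 2 were higher and 2 lower, beside 19.4% of all genes called. The phosphoglucomutase symbols are those deposited: Pgm2 is Entrez Gene 72157 on chromosome 4 and Pgm1 is Entrez Gene 66681 on chromosome 5. Other annotations may name these genes differently, so the identifiers and not the symbols tell them apart. Pgm2 rose by 0.35 (adjusted p = 0.00759). Pgm1 fell from 326.1, 301.2 and 312.3 CPM to 255.9, 208.8 and 215.1 (log2 -0.47, adjusted p = 0.00324), a call that ended on RPKM. Ugp2 fell by 0.28 (adjusted p = 0.0182). That call was lost with TMM, edgeR and DESeq2, on RPKM and without WT replicate 2, KO replicate 2 or KO replicate 3.

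Glucuronides leave the enterocyte through Abcc2 and Abcg2 on the gut side and Abcc3 and Abcc4 on the blood side. Abcc2 had the largest neonatal difference of the 7 tested transporters without passing the test. It stood at 895.6, 895.1 and 691.3 CPM in WT neonates and 1391, 1529 and 1115 in KO neonates, with no overlap (log2 0.70, adjusted p = 0.0606). Among adults it was at 904.0, 885.2 and 665.8 CPM in the WT libraries and 972.5, 632.7 and 862.0 in KO (adjusted p = 0.995).

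Abcg2 rose in neonates from 244.7, 229.0 and 246.0 CPM to 300.9, 274.2 and 279.6 (log2 0.25, adjusted p = 0.00332), a call that ended on RPKM and in the fit of the 4 groups. Abcc4 fell by 0.56 (adjusted p = 0.0141), not without WT replicate 1 or KO replicate 2. The prostaglandin transporter Slco2a1 rose in adults from 91.6, 95.2 and 84.4 CPM to 108.1, 130.0 and 129.8 (log2 0.43, adjusted p = 0.00589). The bilirubin carriers Slco1a4 and Slco1b2 were too low to be tested, at up to 0.379 and 0.351 CPM in any library.

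Within the cell, bilirubin is bound by some glutathione S-transferases of the alpha class, known as ligandins. All 4 listed genes of the class were called in neonates, 2 in each direction, beside 5.21% of all genes called higher and 16% lower. Which of the 4 bind bilirubin was not tested. Gsta3 fell from 19.0, 21.5 and 18.4 CPM to 7.33, 6.37 and 6.41 (log2 -1.42, adjusted p = 6.92e-08), and Gsta2 fell by 1.33 from a WT level of 2.96 to 4.22 CPM. Gsta1 rose from 0.821, 1.07 and 0.355 CPM to 8.47, 3.97 and 4.72 (log2 1.91, adjusted p = 1.25e-05). Gsta4 rose by 0.57, a call that ended without WT replicate 3, without KO replicate 1 and in the fit of the 4 groups. In adults none of the 4 was called, beside 19.4% of all genes. Alpha-class genes are alike in sequence, and how such reads were counted is not given, so single members are uncertain.

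Gusb encodes the lysosomal β-glucuronidase, which takes the sugar off again. In neonates it fell from 200.5, 174.5 and 196.6 CPM in WT to 132.1, 136.6 and 118.4 CPM in KO, with no overlap (log2 -0.56, SE 0.0676, adjusted p = 5.71e-06). Among adults it was at 16.6, 17.6 and 17.5 CPM in the WT libraries and 17.6, 16.5 and 17.04 CPM in KO, and the groups overlapped (log2 -0.01, adjusted p = 0.953). Here the difference between the ages passed its own test (log2 0.55, adjusted p = 0.00466).

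Of 14 listed regulators of Ugt1a genes, 4 were called higher and 3 lower in neonates, and of the 13 tested in adults 4 were higher and 4 lower. Of all genes, 5.21% were called higher and 16% lower in neonates, and 5.5% and 13.9% in adults. The median log2 difference was -0.01 in neonates and 0.02 in adults, beside -0.11 over all genes. Ppara and Nr1i2 were higher at both ages. Ppara, a receptor for fatty acids, stood at 50.2, 49.4 and 41.0 CPM in WT neonates and 108.5, 84.6 and 86.3 in KO neonates (log2 0.97, adjusted p = 1.39e-05). Among adults it was at 138.1, 112.5 and 101.8 CPM in the WT libraries and 281.9, 219.2 and 297.5 in KO (log2 1.17, adjusted p = 0.000782). Nr1i2, the receptor for foreign compounds and bile acids, stood at 115.2, 112.2 and 102.7 CPM in WT neonates and 148.7, 170.6 and 155.6 in KO neonates (log2 0.52, adjusted p = 9.53e-06).

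The rise of Nr1i2 in adults was also 0.52 (adjusted p = 0.00192), at 121.6, 112.0 and 99.4 CPM in the WT libraries and 163.7, 145.8 and 169.5 in KO. The adult KO libraries of Nr1i2 and Ppara lay above all WT libraries, as for 10.4% of all genes, and those of Ugt1a1 overlapped. The adult interval of Ugt1a1, -0.84 to 1.05, held its neonatal difference of 0.70. A link between these genes was not tested. Nfe2l2, the factor of the oxidative stress response, rose in neonates from 195.0, 168.2 and 192.7 CPM to 280.7, 249.5 and 224.6 (log2 0.44, adjusted p = 0.0014) and was not called in adults (log2 -0.07, adjusted p = 0.576).

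The bile acid receptor Nr1h4 rose by 0.23 in neonates, a call that ended without KO replicate 3 and on RPKM, and by 0.49 in adults (adjusted p = 0.00254).

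Other regulators fell. The oxysterol receptor Nr1h3 fell by 0.55 in neonates (adjusted p = 0.000677) and by 0.78 in adults (adjusted p = 0.000173), and Rxra, the partner of most of these receptors, by 0.40 in neonates (adjusted p = 0.000116). Ahr fell in adults from 43.7, 44.7 and 39.1 CPM to 31.2, 26.7 and 28.4 (log2 -0.55, adjusted p = 0.00165), a call that ended on RPKM. Thra in neonates and Nr1i3 and Nr3c1 in adults were called lower by 0.20, 0.36 and 0.33, and each of these calls ended with TMM, with edgeR, with DESeq2 and in most fits that left out 1 library.

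Known targets of the same regulators were read beside the family. In neonates 5 of 6 tested were called higher and 1 lower, and in adults 2 of 6 higher, beside 5.21% of all genes called higher and 16% lower in neonates and 5.5% higher in adults. Cyp3a11, the classical target of Nr1i2, stood at 13.2, 16.1 and 12.2 CPM in WT neonates and 194.2, 267.1 and 214.8 in KO neonates (log2 3.93, adjusted p = 2.15e-08). Among adults it was at 1067, 740.5 and 569.6 CPM in the WT libraries and 2123, 1562 and 2148 in KO (log2 1.33, adjusted p = 0.0293), a call that ended on RPKM and without WT replicate 2, KO replicate 1 or KO replicate 3. On the same log2 scale the neonatal rise of the Ugt1a genes was 0.64 to 0.70.

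Cyp2b10, a target of Nr1i3, rose in neonates by 1.82 from 0.703, 0.214 and 0.948 CPM to 3.92, 3.85 and 6.41. Abca1, a target of Nr1h3, rose by 2.71 in neonates and by 1.89 in adults, the latter not without WT replicate 2 or KO replicate 3. Cyp4a10, a target of Ppara, rose by 1.34 and Fgf15, a target of Nr1h4, by 1.13 in neonates. The call of Cyp4a10 ended in the fit of the 4 groups, with the replicate block and without WT replicate 3 or any 1 KO library, and that of Fgf15 without WT replicate 2. Nqo1, a target of Nfe2l2, fell from 28.1, 28.5 and 26.1 CPM to 19.5, 22.1 and 18.6 in neonates (log2 -0.44, adjusted p = 0.00277), a call that DESeq2 did not make. Cyp1a1, a target of Ahr, was too low to be tested, at up to 0.236 CPM in neonates and 3.99 in adults.

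Partners of NCoR1 moved as well. Tbl1xr1 rose by 0.72 in neonates and 1.12 in adults and Tbl1x by 0.44 and 0.54, both parts of the corepressor complex. Hdac3, the deacetylase of the complex, was called higher in adults by 0.24 at an adjusted p of 0.0472, and that call ended without any 1 of the 6 libraries.

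**Figure D5:**
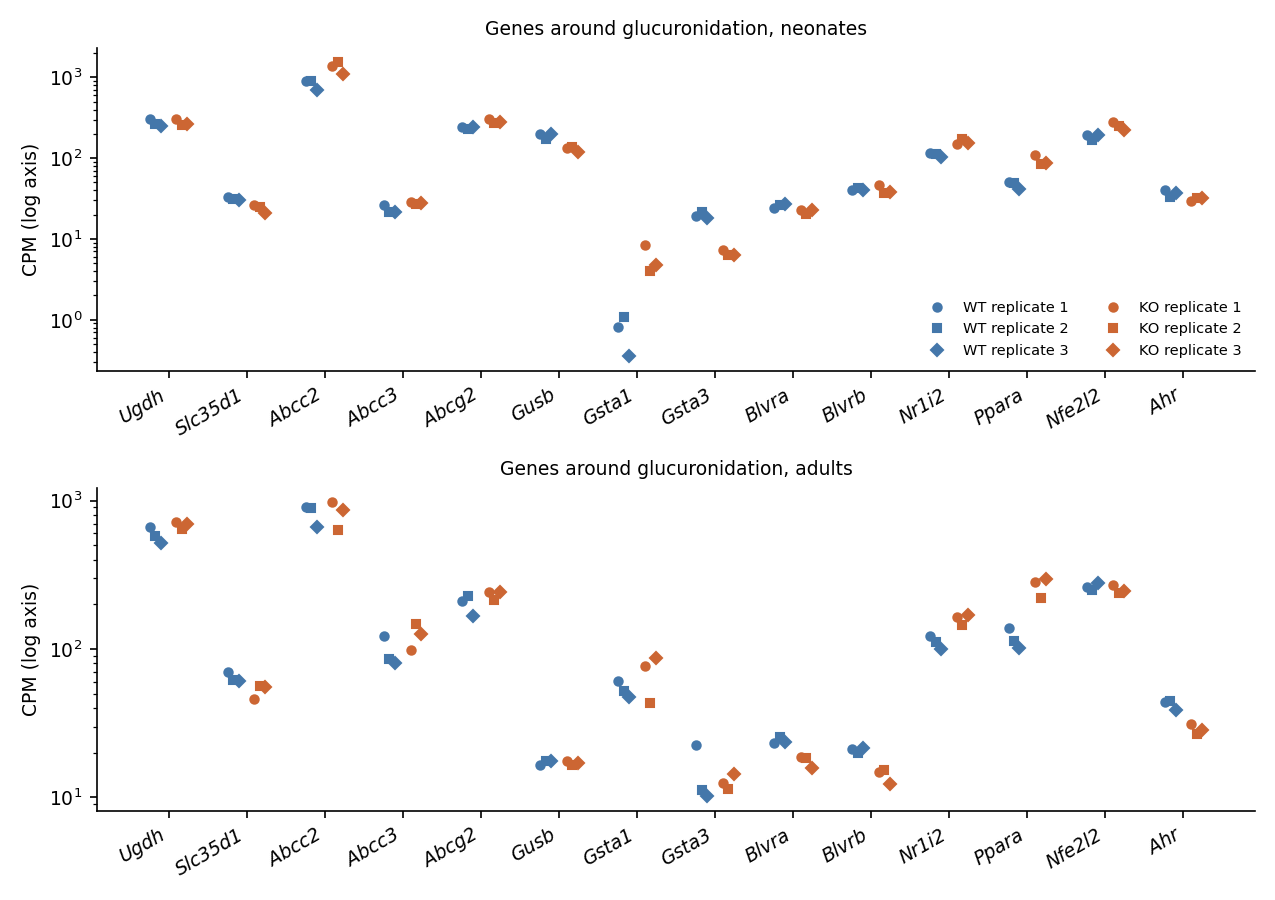
Level in CPM on a log axis of 14 genes that make the sugar donor, carry or cleave glucuronides, bind or make bilirubin or regulate Ugt1a genes, in neonates (top) and adults (bottom), 1 point per library with WT in blue and KO in orange. Gusb and Gsta3 lie lower and Ppara and Nr1i2 higher in KO neonates, and Gusb in adults lies at 16.5 to 17.6 CPM in both genotypes.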

How the data were processed

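Stranded mRNA libraries were run for 36 cycles, and reads were aligned with Bowtie 0.12.2 to mm9, per the submitters' processing notes. HOMER counted exon reads on the strand opposite to the gene, per the file headers. The deposited read columns hold a signal, that is read counts scaled by the authors to 1 total per table. Dividing by the step of each library gave whole reads for 100% of values within 0.02 (largest deviation 0.0103). Also deposited by the authors are RPKM and, for each gene, log2 fold changes with an adjusted p-value (false discovery rate).

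Scaled reads were turned into CPM. Genes that reached 1 CPM in 3 or more libraries were tested within each age on log2(CPM + 1) by limma 3.58.1 (trended, robust) in R 4.3.3. Calls needed an adjusted p (Benjamini-Hochberg, over all genes) under 0.05. This scale understates changes of low genes. The difference between ages came from 1 fit of 12 libraries. The spread behind every p-value is that between pools of 2 mice, and the labels do not say how the pools were drawn. Reads above Ugt1a6b were compared with exact permutation tests over libraries. Checks on simulated data recovered most of the changes put in, which were larger than the neonatal rise of the Ugt1a genes. The simulated libraries also varied less than the adult Ugt1a libraries did, so recovery at such a change and spread was not checked. Alternatives were TMM factors, other pseudocounts and filters, RPKM, edgeR 4.0.16 and DESeq2 1.42.0 on recovered reads, 1 fit of the 4 groups, the replicate number as a block, and leaving out each library.

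The family, the gene lists and the tests were chosen with earlier results of these data known. Named are Ncor1, all 8 Ugt1a genes, list members called in either age, and the 5 ranked genes most like Ugt1a1. Ugdh, Abcc2, Hmox1, the bilirubin carriers and Cyp1a1 are named outside that rule, after their values were seen. The deposited lists of changed genes were not used. A few list members and sequences are not reported here.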

Additional observations from a re-analysis of the deposited data

Results flagged for a closer look

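For no Ugt1a gene was the effect of the knockout shown to differ between the ages. Among the listed genes around them, it differed for 12 of 51 tested (23.5%, beside 5.46% of all genes). The lists were chosen with earlier results of these data known and include Ncor1, the deleted gene. Side by side, these shares are therefore a description and no test of the lists. Limma tested the difference itself, in adults minus neonates on the log2 scale.

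That difference was below 0 for Cyp3a11 (-2.60, adjusted p = 0.00343), Cyp2b10 (-2.72, adjusted p = 0.00405), Pgm1 (Entrez Gene 66681, -0.56, adjusted p = 0.0151) and Nfe2l2 (-0.51, adjusted p = 0.0118). For Cyp2b10 the direction turned, from higher in KO neonates to a lower level in KO adults, with 530.9, 471.7 and 330.2 CPM for WT against 277.9, 182.2 and 250.9 for KO, a fall that was not called (adjusted p = 0.0611).

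The adult less the neonatal effect was above 0 for Gsta2 (1.48, adjusted p = 0.0297), Gsta3 (1.31, adjusted p = 0.0259), Gusb (0.55, adjusted p = 0.00466), Rxra (0.42, adjusted p = 0.0186) and Ncor1 (0.39, adjusted p = 0.0128). It was also above 0 for Pgm2 (Entrez Gene 72157, 0.46, adjusted p = 0.0101), Slco2a1 (0.45, adjusted p = 0.0155) and Tbl1xr1 (0.40, adjusted p = 0.0235). The calls of Gsta2, Gsta3, Tbl1xr1, Slco2a1 and Rxra ended in at least 1 fit that left out a library, and that of Gsta3 also with edgeR.

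Among the markers of cell types, the effect also differed, below 0 in each case, for 4 of 10 enterocyte markers (Vil1, Epcam, Krt20 and Slc5a1). The same held for 2 of 5 tested secretory markers (Tff3 and Defa24). It differed above 0 for 2 of 5 tested liver markers (Fga and Fgb). Of all genes, 3.02% were called above 0 and 2.44% below 0.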

How the results depend on the processing

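With each gene counted once per alternative, the neonatal rise of the 8 Ugt1a genes was called in 120 of 128 fits. Their log2 differences were 0.54 to 0.84. The 8 genes share most of their reads, so these fits are not independent and the alternatives are far fewer. The exception was 1 fit of the 4 groups, with 0 genes called. Counted in the same way, 0 of 128 fits called a Ugt1a gene in adults and 0 of 144 for the difference between ages. The lowest adjusted p over these fits was 0.43 in adults and 0.0733 for the difference. The KO minus WT difference of Ugt1a1 reads above Ugt1a6b in neonates was 4.52 CPM and 2.262 when scaled to the library total behind RPKM, of which reads in genes are only a part. Leaving out 1 library gave 3.29 to 5.29 CPM in neonates and -0.81 to 3.09 in adults.

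Counts over all genes moved more. With DESeq2 1585 genes were called in neonates in place of 3009, and on RPKM 1136 in adults in place of 2611; the cause was not tested. Leaving out 1 library gave 1281 to 2552 genes in adults, lowest without KO replicate 3, WT replicate 2 (1483) or KO replicate 2 (1605), 2020 to 2581 in neonates, and 517 to 1047 in place of 796 for the difference between ages. Among the Ugt1a genes and the listed genes around them, no log2 difference that had been called changed sign in any alternative. Signs were not compared for the cell type markers or over all genes. DESeq2 gave no adjusted p for 5 list genes in neonates, and these were not counted as lost.

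The deviations of same-numbered WT and KO libraries from their group means correlated at 0.16, 0.139 and 0.0286 in neonates. In adults these correlations were 0.0616, -0.212 and -0.121. For libraries of different numbers they ran from -0.183 to 0.0422 in neonates and from -0.129 to 0.229 in adults. The same-numbered neonatal values were thus positive but small, and whether replicate numbers pair the libraries was not settled. With the replicate number as a block, the adjusted p of Ugt1a1 was 9.54e-06 in neonates and 0.479 in adults, and 3575 and 2272 genes were called.

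Depth limits what can be said of single genes: the reads above Ugt1a6b were 12 to 103 per neonatal library for Ugt1a1 and Ugt1a7c.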
